A study of Rattus norvegicus with 48 samples.

Results

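The oil vapor effect on the rat lung that the single and the repeated exposure schedules had in common was examined 1 day after the last exposure. It was taken as the average difference between oil vapor and air lungs over both schedules, with the schedule as a block, across all genes. It rested on 24 of the 48 libraries of the study, 12 from oil vapor and 12 from air lungs, chosen by the time, treatment and schedule in their labels. All were from male Sprague-Dawley rats of about 200 to 250 g that stayed in whole-body inhalation chambers. In the single schedule, 6 rats breathed filtered air and 6 breathed oil vapor at 300 ppm for 6 h on 1 day. In the repeated schedule, 6 breathed air and 6 breathed oil vapor at that level for 6 h per day on 4 days per week for 4 weeks, in all 16 exposure days. The ages of the rats are not given in the sources used here. RNA came from a piece of lung of each animal, so that the share of airway, vessel or neighbouring tissue in a piece could differ between animals. In such bulk samples, fewer cells of a type and less RNA per cell cannot be told apart.

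The lung meets inhaled vapors first in its airways, where ciliated cells move mucus and club cells secrete protective proteins, and then in the alveoli, where thin type 1 cells exchange gas and type 2 cells make surfactant. Club and type 2 cells hold cytochrome P450 enzymes, which oxidize foreign hydrocarbons (phase 1), and enzymes that attach polar groups to the products (phase 2). The aryl hydrocarbon receptor and NRF2 are the regulators by which many inhaled chemicals raise such enzymes. Serum proteins such as albumin, fibrinogen and transthyretin are made by the liver and are not typical of lung.

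Library totals of the 24 libraries ranged from 1.54 to 7.16 M counts (mega), with 5.17 ± 0.552 M in air and 5.29 ± 1.69 M in oil vapor (SD, n = 12 each). A count of 0 allowed up to 3 counts, or 0.419 to 1.95 CPM, the count relative to the library total, which covers counting error only. Lung markers other than Marco were present in all 24 libraries. The surfactant gene Sftpc lay between 2080 and 6950 CPM, the type 1 cell receptor gene Ager between 509 and 1630 CPM and the club cell secretoglobin gene Scgb1a1 between 978 and 3510 CPM. The alveolar macrophage receptor gene Marco was near 0, at most 0.816 CPM. However, 26 measured alveolar macrophage and lipid handling genes summed to 2000 to 2974 CPM, so Marco alone does not describe these cells. Animal 43, of the repeated oil vapor group, had the shallowest library. Its 16 measured erythroid genes summed to 44600 CPM and those of animal 5, of the single oil vapor group, to 14600 CPM, against 1722 to 6820 CPM in the other 22 libraries. Heart muscle genes summed to 97.07 to 1295 CPM over the 24 libraries, while the esophagus gene Krt13 and the neural gene Snap25 had medians of 0 CPM.

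Liver, erythroid and platelet transcripts had like counts in pairs of animals that the design does not connect. When animals were ranked by number within their group and set beside the animal of that rank under the same treatment in the other schedule, Alb had 768 counts in animal 5 and 1092 counts in animal 43, although the totals of these libraries were 4.74 and 1.54 M. In the other oil vapor pairs Alb had 48 and 89 counts (animals 6 and 44), 1345 and 1511 (7 and 45), 197 and 204 (13 and 46), 323 and 401 (14 and 47), and 1547 and 1791 (16 and 48). In the air pairs the counts were 123 and 132, 85 and 75, 105 and 120, 228 and 265, 67 and 81, and 35 and 47. The order of the 6 animals was thus nearly the same in both schedules. Over these 12 pairs, with group means removed, the median Pearson r of all 14947 genes tested was 0.089 (Spearman rho 0.063), and 480 genes (3.21%) lay above 0.8. The 50 genes of smallest p for the oil vapor effect had a median r of 0.742 (rho 0.776), and 15 of them lay above 0.8. By list, the median r was 0.975 for erythroid, 0.951 for platelet and 0.793 for liver genes. It was 0.367 for heart muscle, 0.326 for skeletal muscle (3 genes) and 0.151 for neural genes (5 genes). Between the liver and heart values stood T cell (0.567), cytosolic ribosomal protein (0.541), natural killer (0.441) and circadian clock genes (0.408). Adipose (0.393, 4 genes) and esophagus and thymus genes (0.371, 1 gene) stood there as well, and all other lists were lower than heart muscle. These correlations describe pairs that share treatment, time and rank but come from different animals, and the source of the shared transcripts was not tested. Since such pairs are not independent for these genes, a fit that summed both animals of each pair, 6 against 6, is given beside the main values.

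**Figure D1:**
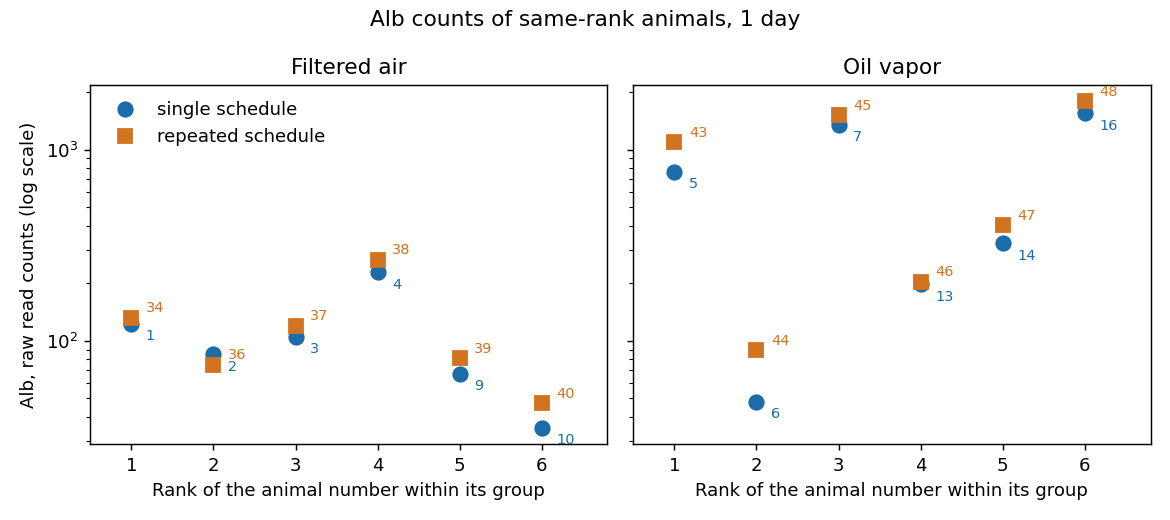
Raw read counts of Alb (log axis) in each animal against the rank of its number in its group, for air (left) and oil vapor (right), with circles for the single and squares for the repeated schedule and the animal number beside each. At each rank both schedules lie close together, for example at 1345 and 1511 counts for animals 7 and 45, while oil vapor animals range from 48 to 1791 counts.

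Across all genes, no gene passed the test for an oil vapor effect shared by both schedules. The quasi-likelihood test of edgeR, adjusted by Benjamini-Hochberg, called 0 of 14947 genes (0%), and the smallest adjusted p was 0.0665. At an unadjusted p below 0.05 there were 1073 genes (7.18%), 594 higher (3.97%) and 479 lower (3.2%) in oil vapor. The median log2 fold change of all genes was 0.01, and 55.4% had a value above 0. In no gene did all 12 oil vapor libraries lie on one side of all 12 air libraries, nor did any gene have groups that did not overlap, in the same direction, in each schedule. The summed fit called 0 of 15635 genes as well (smallest adjusted p 0.45), with 1154 (7.38%) at an unadjusted p below 0.05. DESeq2 called 54 genes, 48 higher and 6 lower, and limma-voom with sample weights 3, all higher. Leaving out 1 animal gave 2 calls without animal 5, 32 without 6, 1 without 16, 14 (0.0928%, all higher) without 43, 35 without 44, 30 without 46 and 19 without 47, each of them an oil vapor animal, and 0 without any other. Without animals 5 and 43 together 13 genes were called (0.0865%), 12 higher (0.0798%) and 1 lower (0.00665%).

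A total of 22 genes shared the smallest adjusted p of 0.0665, and all 22 had higher values in oil vapor lungs. Of the 22, 7 were on the liver list, among them Alb, Apob, Ttr, Fga and Fgb. A log2 fold change above 1 was found for 19, and the other 3 were LOC681410 (0.28), LOC100363335 (0.32) and Zfp513 (0.40). Regulatory sequences of liver genes are shown here since several of these genes had large and similar differences. HNF1 factors, which keep hepatocyte genes active, bind sequences with the core GTTAAT. This core was searched on both strands in the 300 bases around each gene's start (250 before, 50 after) in the RefSeq promoter table of the assembly GRCr8. Of the 25 liver list and leading genes, 19 were matched, and 6 of these genes had the core in at least 1 promoter. Counted per promoter and not per gene, it was present in 7.45% of all 33469 promoters. These shares have unlike units, and whether they differ was not tested. The core is in capitals on the strand where it lies (ATTAAC is its reverse complement). The 3 promoters shown were picked from the 6 genes with the core, and the values of their genes follow and were alike. They stand at chr14:17906930-17907229 on the minus strand (Alb), chr2:170700826-170701125 on the minus strand (Fgb) and chr14:18916005-18916304 on the plus strand (Gc), printed 5′ to 3′ along the gene.
Alb: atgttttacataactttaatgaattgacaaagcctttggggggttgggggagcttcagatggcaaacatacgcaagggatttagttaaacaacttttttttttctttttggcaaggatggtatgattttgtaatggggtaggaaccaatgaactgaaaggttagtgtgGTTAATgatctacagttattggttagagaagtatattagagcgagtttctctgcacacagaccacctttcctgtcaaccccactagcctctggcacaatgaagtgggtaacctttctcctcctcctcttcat
Fgb: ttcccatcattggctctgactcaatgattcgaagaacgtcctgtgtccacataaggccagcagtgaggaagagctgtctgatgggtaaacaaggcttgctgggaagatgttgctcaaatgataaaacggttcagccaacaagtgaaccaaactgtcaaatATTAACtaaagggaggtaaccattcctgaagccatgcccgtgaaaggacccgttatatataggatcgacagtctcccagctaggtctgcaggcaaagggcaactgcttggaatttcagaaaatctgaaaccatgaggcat
Gc: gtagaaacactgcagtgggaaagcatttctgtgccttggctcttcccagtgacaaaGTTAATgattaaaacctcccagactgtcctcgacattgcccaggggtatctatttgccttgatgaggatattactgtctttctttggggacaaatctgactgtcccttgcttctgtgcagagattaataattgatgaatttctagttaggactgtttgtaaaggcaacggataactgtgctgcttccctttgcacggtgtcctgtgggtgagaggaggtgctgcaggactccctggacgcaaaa
A match is a description of these letters and no sign of binding in these lungs.

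Alb, the serum albumin gene, had its lowest, median and highest values at 6.64, 19.9 and 41.0 CPM in single air, 12.0, 104 and 289 CPM in single oil vapor, 10.2, 18.0 and 43.6 CPM in repeated air, and 24.7, 143 and 710 CPM in repeated oil vapor. Of the 12 oil vapor animals, 4 lay within the air range of their schedule, 6 and 13 in the single and 44 and 46 in the repeated schedule. Animals 14 and 47, at 45.7 and 64.6 CPM, stood just above it, and animals 5, 7 and 16 and their partners 43, 45 and 48 far above it. The log2 fold change over both schedules was 3.08 (SE 0.57, adjusted p = 0.0665), 2.58 in the single and 3.58 in the repeated schedule. With pairs summed it was 2.85, and without animals 5 and 43 it was 2.51 (adjusted p = 0.0266). Without animal 43 alone it was 2.55 (adjusted p = 0.0415). With covariates that score erythroid, heart muscle and liver transcripts, the last including Alb itself, it was 0.64 (adjusted p = 0.302).

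Gc, the vitamin D carrier whose promoter is shown above, lay between 0.653 and 4.12 CPM in the air libraries and between 0.748 and 72.9 CPM in the oil vapor libraries, with a log2 fold change of 3.03 (SE 0.62). Fgb, which encodes the fibrinogen beta chain, ranged from 0 to 3.24 CPM in air and from 0.748 to 44.9 CPM in oil vapor, with a value of 3.08. For both genes the oil vapor range began within the air range and reached far above it. Of the other leading genes, Apob, which builds the core of low-density lipoprotein, had a value of 2.99. The hormone carrier gene Ttr stood at 2.97, the fatty acid binding protein gene Fabp1 at 2.88, the protease inhibitor gene Pzp at 2.90, the fibrinogen alpha chain gene Fga at 2.94, Hrg at 3.12 and the matrix-binding Itih3 at 2.58, each with an adjusted p of 0.0665. Same-rank correlations of Alb and these leading genes lay between 0.739 (Ttr) and 0.897 (Hrg). Without animals 5 and 43, Alb, Apob and Itih3 passed the test, whereas Ttr stood at an adjusted p of 0.0538 and Fabp1 and Hrg were under the filter on low counts.

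Of 20 genes on a liver list, 15 were tested and all 15 were higher, with a median of 2.50 against 0.01 over all genes. An unadjusted p below 0.05 was reached by 13 of the 15, 0 passed, and 1 of the 20 was at 0 in all 24 libraries. The median was 2.193 in the single and 2.99 in the repeated schedule, 2.37 with pairs summed, 1.98 without animals 5 and 43, and 0.26 with the covariate scores, 1 of which is made of these genes. The summed list lay between 228.3 and 369 CPM in the 12 air libraries. It lay between 251.1 and 810.9 CPM in single oil vapor and between 227.7 and 1676 CPM in repeated oil vapor, highest in animal 43. The median same-rank r of the list was 0.793. Over all tested genes, 101 had a log2 fold change of 1 or more and 12 of -1 or less. Of the 101 genes, 89 had a same-rank r above 0.6.

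**Figure D2:**
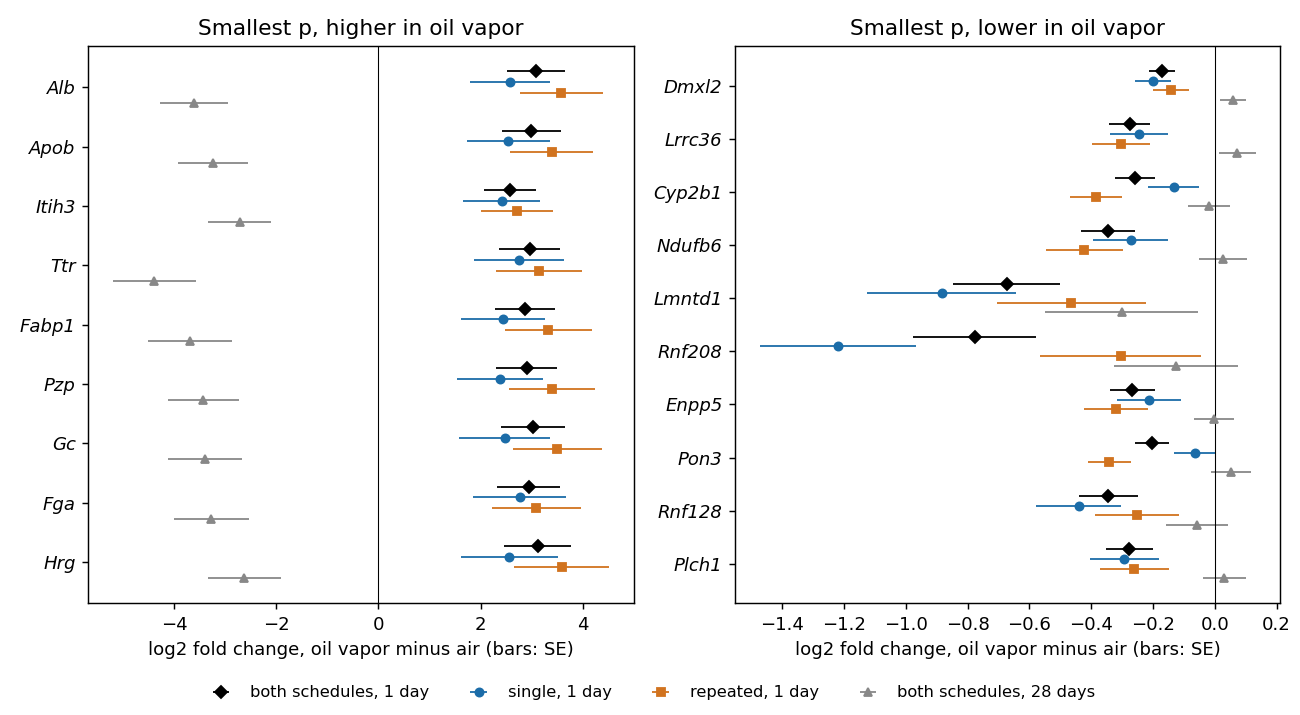
Log2 fold changes of oil vapor minus air with their SE for genes of smallest p, 9 higher and 10 lower, over both schedules at 1 day (diamonds), in the single (circles) and repeated schedule (squares) and over both schedules at 28 days (triangles). The 9 higher genes stand near 3 at 1 day and between -4.39 and -2.63 at 28 days, while the 10 lower genes lie between -0.78 and -0.17 at 1 day.

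Among genes with the smallest p and lower values in oil vapor, differences were small. None of the 10 named by the rule passed the test, and 9 of the 10 had a same-rank r below 0.5, the exception being Ndufb6 at 0.758. All 10 had lower values in both schedules. Dmxl2, a subunit of the regulatory complex of the vesicle proton pump, had its lowest, median and highest values at 178, 196 and 219 CPM in single air and 146, 173 and 186 CPM in single oil vapor. In the repeated schedule they were 188, 211 and 229 CPM in air and 133, 186 and 203 CPM in oil vapor. The groups overlapped in part in both schedules, and the log2 fold change was -0.17 (SE 0.04, adjusted p = 0.133).

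Cyp2b1, a phenobarbital-type cytochrome P450 that is abundant in rat lung, showed the larger difference in the repeated schedule. Its lowest, median and highest values were 251, 310 and 336 CPM in single air and 241, 259 and 328 CPM in single oil vapor, which overlapped widely. They were 361, 390 and 418 CPM in repeated air and 203, 285 and 355 CPM in repeated oil vapor, so that no oil vapor animal reached the lowest air animal (0.642% of all genes in that direction in the repeated schedule). Over both schedules the value was -0.26 (SE 0.06, adjusted p = 0.141), from -0.13 in the single and -0.38 in the repeated schedule. The difference between schedules was -0.25 (SE 0.12, adjusted p = 0.568) and did not pass. Reads of Cyp2b1 and its near-identical neighbours may be split by the counting, so this value is uncertain in that respect.

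Lrrc36, a leucine-rich repeat gene, lay between 20.9 and 24.8 CPM in single air and between 16.4 and 20.7 CPM in single oil vapor, without overlap (0.428% of all genes in that direction in the single schedule). In the repeated schedule it lay between 23.5 and 30.3 CPM in air, and in oil vapor at 9.11 CPM in animal 43 and between 20.1 and 24.7 CPM in the other 5 animals. Its value was -0.27 (SE 0.07, adjusted p = 0.136), with -0.25 and -0.30 in the single and repeated schedules and -0.23 without animals 5 and 43. Ndufb6, an accessory subunit of respiratory complex I, had 14.3 to 16.2 CPM in repeated oil vapor against 18.3 to 22.9 CPM in repeated air. In the single schedule, with 12.9 to 21.7 CPM against 16.5 to 26.4 CPM, the groups overlapped. Its value was -0.35 (SE 0.09, adjusted p = 0.166), and it was the only lower gene called without animals 5 and 43 (-0.43, adjusted p = 0.0182).

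Rnf208, a ubiquitin ligase gene, lay between 0.843 and 1.84 CPM in single oil vapor, under all 6 single air animals at 2.07 to 4.83 CPM. In the repeated schedule, with 0.651 to 2.78 against 1.65 to 3.00 CPM, the groups overlapped, and the value over both schedules was -0.78 (SE 0.20, adjusted p = 0.180). Many of these CPM values are of few counts, so their error is wide. Of the remaining 5 genes of the rule, the phospholipase C gene Plch1 had a value of -0.28, the lactone hydrolase gene Pon3 -0.20, the ubiquitin ligase gene Rnf128 -0.34, the ectonucleotidase family gene Enpp5 -0.27 and Lmntd1 -0.67. Pon3 was lower mainly in the repeated schedule (-0.34, against -0.06 in the single), while Plch1 had -0.29 in the single and -0.26 in the repeated schedule. Of the genes named by earlier single-schedule results, Mal2, a transport protein of polarized epithelia, had -0.17 (adjusted p = 0.499), made up of 0.0016 in the single and -0.34 in the repeated schedule. The caveolin gene Cav2 had -0.16 (adjusted p = 0.428), Rph3al -0.31 (adjusted p = 0.428) and Fam13a -0.30 (adjusted p = 0.404). Ptprt (0.22 and -0.93), Hnrnpa2b1 (-0.14 and 0.45), Enpp3 (-0.62 and 0.29) and Lbp (-0.93 and 0.50) had values of opposite sign in the single and repeated schedules.

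**Figure D3:**
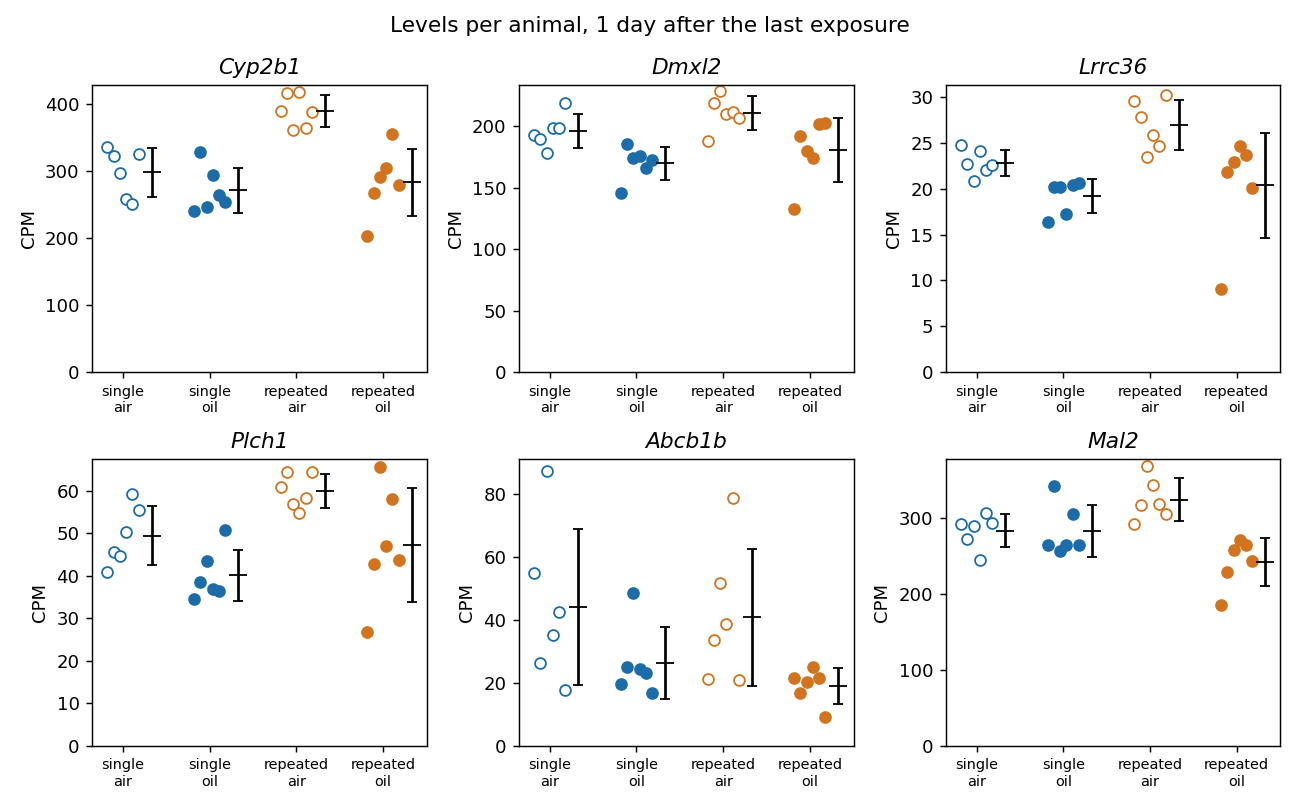
CPM of 6 genes in each animal of the 4 groups at 1 day, open for air and filled for oil vapor, with the group mean and SD (n = 6) in black. Cyp2b1 and Mal2 separate the groups in the repeated schedule only, Lrrc36 in the single schedule only, and Abcb1b varies most widely among air animals, from 17.6 to 87.2 CPM.

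The oil vapor effects of the 2 schedules shared little across genes. Of 14947 genes, 50.3% had the same sign in both schedules, with a Pearson r across genes of 0.278 and a Spearman rho of 0.0385. Genes are not independent, and the schedules share no library. Without animal 43 the share was 45.7% and r 0.142, and without animals 5 and 43 they were 49.8% and 0.19. An unadjusted p below 0.05 in both schedules was found for 165 of the 14947 genes. Of all genes, 7.3% reached it in the single and 9.43% in the repeated schedule. The number of genes that these 2 rates alone would give was not computed. The counts and genes that follow are therefore descriptions and do not show a shared set. Of the 165 genes, 77 had the same sign, 63 higher and 14 lower, and 88 had opposite signs. Without animals 5 and 43 the numbers were 134 and 155, and without animal 43 alone 101 and 190.

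Among the 63 higher genes, a log2 fold change of 1 or more was found for 36, of which 33 had a same-rank r above 0.6 and 10 were on the liver list. At 28 days 34 of the 36 had values below -1, the exceptions being LOC103693756 (0.17) and LOC685020 (-0.23). The other 27 genes had a median same-rank r of 0.136 and values between 0.12 and 0.93. They included the zinc finger gene Zfp513 (0.40, SE 0.09, adjusted p = 0.0665), the class I histocompatibility gene RT1-CE4 (0.73, SE 0.18, adjusted p = 0.141), the lymphoid transcription factor gene Gata3 (0.43, SE 0.11, adjusted p = 0.199) and Them6 (0.45, SE 0.10, adjusted p = 0.109), chosen after their values were seen. Zfp513 lay between 17.6 and 24.9 CPM in air and between 18.1 and 33.2 CPM in oil vapor, so the groups overlapped. RT1-CE4 had medians of 21.4 and 21.1 CPM in air and 36 and 32.2 CPM in oil vapor of the single and repeated schedules, and near-identical class I genes may share its reads. An uncharacterized gene, LOC103693756, had the largest value of the 63, 3.69 (SE 0.80, adjusted p = 0.0665), with a same-rank r of 0.42. Its counts in single oil vapor were 151, 3, 1826, 7529, 506 and 4119, and in repeated oil vapor 35, 71, 277, 263, 2044 and 8884, so that a few animals of each group carried the difference.

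The 14 lower genes all had values between -0.90 and -0.17, and their median same-rank r was 0.235. Dmxl2, Lrrc36, Ndufb6 and Plch1 were among them. Abcb1b, Klf5 and Nt5e were further examples, chosen after their values were seen. Abcb1b encodes a P-glycoprotein, a pump that exports many foreign compounds. It had medians of 38.9 and 36.2 CPM in single and repeated air and 23.8 and 20.8 CPM in single and repeated oil vapor, with an overlap in both schedules. Its value of -0.90 (SE 0.25, adjusted p = 0.297) was similar in the single (-0.75) and the repeated schedule (-1.06). Klf5, a transcription factor gene of airway and alveolar epithelium, had a value of -0.30 (SE 0.09, adjusted p = 0.331). Nt5e, the ectonucleotidase that makes adenosine, had -0.23 (SE 0.07, adjusted p = 0.364), with -0.22 and -0.23 in the single and repeated schedules.

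**Figure D4:**
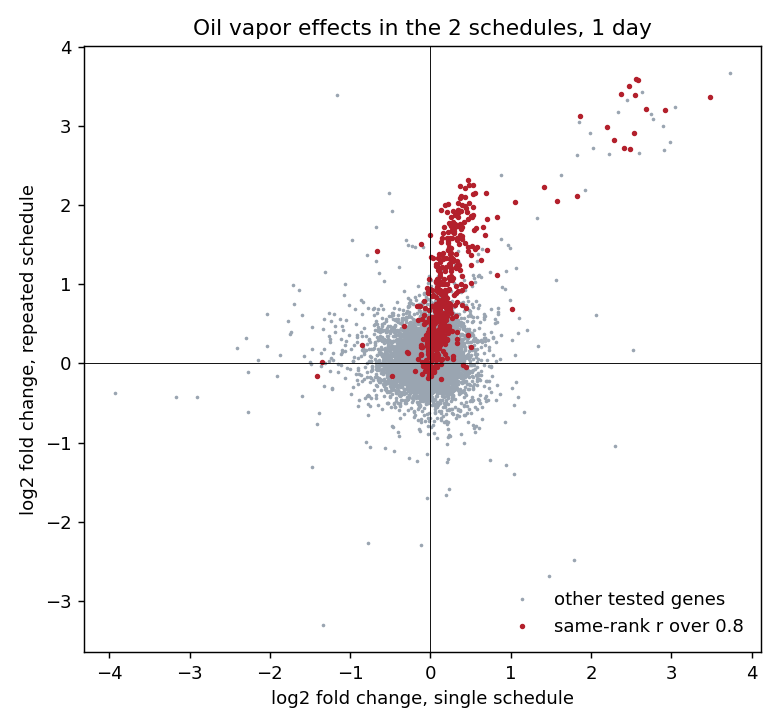
Log2 fold changes of oil vapor minus air at 1 day for the genes tested, single schedule (horizontal) against repeated schedule (vertical), with genes whose same-rank r was above 0.8 in red (480 genes). Grey genes form a round cloud, while the red genes form a steep streak of higher values and, with other genes, the group near 3 on both axes that holds the liver genes.

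A direct test of the difference between schedules called 0 of 14947 genes (0%), with a smallest adjusted p of 0.0648 and 1298 genes (8.68%) at an unadjusted p below 0.05. DESeq2 called 45 genes and limma-voom 42, and without animal 43 edgeR called 28. The 5 genes of smallest p had values of opposite sign in the schedules. Rab27a, a small GTPase that docks secretory vesicles, lay between 45.2 and 63.2 CPM in single air and between 28.3 and 44.4 CPM in single oil vapor. In the repeated schedule it lay between 28.3 and 43.3 CPM in air and between 46.5 and 54.7 CPM in oil vapor, so that the groups did not overlap in either schedule, in opposite directions (0.428% of all genes were without overlap and lower in the single schedule, and 0.154% without overlap and higher in the repeated schedule). The repeated effect exceeded the single effect by 1.09 (SE 0.18, adjusted p = 0.0648). The differences were 1.30 for the myosin light chain gene Myl12b, 0.98 for Fam217b, 0.88 for Cldnd1 and -1.97 for the nuclear receptor gene Nr5a2. Within the schedules, 0 genes were called in the single (1091 at an unadjusted p below 0.05, smallest adjusted p 0.354) and 0 in the repeated schedule (1410, smallest adjusted p 0.193). DESeq2 called 0 and 87 genes, and limma-voom 2 and 70, in the single and repeated schedules.

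Genes of the conducting airways had mostly lower values in oil vapor, more so in the single than in the repeated schedule. In these lists and all that follow, 0 members passed the test, against 0% of all genes called, so counts and medians are descriptions beside the median of 0.01 over all genes and the 3.97% higher and 3.2% lower at an unadjusted p below 0.05. Of 17 ciliated cell genes 15 were lower, 11 in both schedules, with a median of -0.24 and 5 at an unadjusted p below 0.05. Drc1, which regulates the dynein arms of cilia, had a value of -0.35 (SE 0.12), and Hydin, of the ciliary central apparatus, -0.33 (SE 0.13). Of 8 mucus and goblet genes 7 were lower (median -0.33), but only 2 in both schedules, with 4 higher and 4 lower in the repeated schedule. Of 9 club cell genes 7 were lower (median -0.20), 5 in both schedules. Scgb1a1 had opposite directions, with medians of 2050 CPM in single air and 1610 CPM in single oil vapor. In the repeated schedule they were 1910 CPM in air and 2420 CPM in oil vapor. The medians were -0.48, -0.59 and -0.46 for ciliated, mucus and club cell genes in the single schedule, and -0.11, -0.03 and -0.11 in the repeated schedule. The gel-forming mucin gene Muc5b lay between 5.06 and 26.1 CPM in single oil vapor against 20.8 to 166 CPM in single air, and between 14 and 197 against 16.8 and 140 CPM in the repeated schedule. It had a value of -1.13 (SE 0.51, adjusted p = 0.653), and the secretoglobin gene Scgb3a1 -1.53 (SE 0.63, adjusted p = 0.625). Both had wide ranges within each air group, and how much airway each lung piece held was not tested.

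Alveolar and vessel genes stood near the median of all genes. Lower values were found for 13 of 14 type 1 cell genes, 5 of them lower in both schedules (median -0.06), and for 12 of 17 type 2 cell genes (median -0.04). The type 1 list had 7 higher and 7 lower genes in the single schedule (median -0.01), 3 and 11 in the repeated schedule (median -0.14), and 7 and 7 without animals 5 and 43 (median -0.0059). Its median was -0.03 without animal 43 alone. Sftpc had a value of -0.15 (SE 0.09, adjusted p = 0.759), 0.00 in the single and -0.29 in the repeated schedule, and Rtkn2, a type 1 cell gene, -0.11 (SE 0.05). Endothelial genes were higher in 10 and lower in 10 of 20 cases (median 0.00). Among 21 fibroblast and collagen genes, 11 were higher and 10 lower (median 0.01), and the small proteoglycan genes Dcn at -0.35 (SE 0.11) and Lum at -0.28 (SE 0.09) had the smallest p.

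Enzymes that process foreign compounds had mostly lower values, by small amounts. Of 31 phase 1 enzyme genes tested 25 were lower, 18 in both schedules, with a median of -0.10, and -0.08 in the single and -0.11 in the repeated schedule. Cyp2c7, which is expressed in liver, went the other way with 2.63 (SE 0.69, adjusted p = 0.199) and took part in the pattern of the liver genes, at -3.95 at 28 days. Of 22 phase 2 enzyme genes 15 were lower (median -0.07), 10 in both schedules. In the single schedule 12 were lower and 10 higher (median -0.0041), and in the repeated schedule 20 and 2 (median -0.11). The lower genes included the sulfotransferase gene Sult1a1 at -0.17 (SE 0.07) and Gstm2 at -0.14 (SE 0.07). Without animals 5 and 43 the medians were -0.08 and -0.06 for phase 1 and phase 2.

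Genes that report on sensors of foreign compounds and oxidants had medians near that of all genes. For the aryl hydrocarbon receptor 8 of 11 genes were lower (median -0.04), 5 of 11 in the single and 10 of 11 in the repeated schedule, and none reached an unadjusted p below 0.05. Cyp1a1, its classic target, had medians of 24.3 CPM in single air and 25.7 CPM in single oil vapor, and of 6.34 and 4.26 CPM in the repeated schedule, with overlapping groups in both. Of 28 NRF2 and antioxidant genes 16 were higher and 12 lower (median 0.04, and -0.02 without animals 5 and 43). Prdx6, a peroxiredoxin, had -0.15 (SE 0.07), while Gpx1 and Cat, which red cells also hold, had 0.82 and 0.55, and -0.38 and -0.16 without animals 5 and 43. Heat shock genes had a median of -0.18 in the single and 0.23 in the repeated schedule, and immediate early genes of -0.23 and 0.29. Endoplasmic reticulum stress genes stood at 0.01.

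Genes of lipid synthesis were lower in both schedules more often than not. Of 23 cholesterol synthesis genes 18 were lower, 15 of them in both schedules, with a median of -0.12, 7 at an unadjusted p below 0.05 and 0 higher at that p. The medians were -0.14 in the single schedule, -0.09 in the repeated schedule and -0.12 without animals 5 and 43. At 28 days 21 of the 23 were lower as well, with a median of -0.11. Sqle, the squalene epoxidase, had medians of 32.9 CPM over the 12 air and 25.7 CPM over the 12 oil vapor libraries, with a range of 22.7 to 39.7 against 13 to 32.1 CPM and a value of -0.29 (SE 0.09, adjusted p = 0.396). Idi1, of the isoprenoid step, had -0.30 (SE 0.12). Of 17 fatty acid synthesis genes 13 were lower (median -0.05), 6 at an unadjusted p below 0.05. The desaturase gene Scd had -0.21 (SE 0.08), the triglyceride synthase gene Dgat1 -0.19 (SE 0.07) and Acaca -0.12 (SE 0.05). Among 25 macrophage and lipid handling genes 14 were lower (median -0.02, from 0.05 in the single and -0.11 in the repeated schedule), with the lipase gene Lpl at -0.28 (SE 0.10).

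Interferon and lymphocyte genes had mostly higher values. Of 36 interferon response genes 33 were higher, 28 in both schedules, with a median of 0.15 and 9 at an unadjusted p below 0.05. The median was 0.08 without animals 5 and 43, with 27 of 36 higher. Isg15, a ubiquitin-like effector, had medians of 19.4 CPM in air and 23.2 CPM in oil vapor over 12 libraries each and a value of 0.45 (SE 0.17, adjusted p = 0.549), with 0.46 and 0.44 in the single and repeated schedules and 0.27 without animals 5 and 43. Bst2, which tethers virions, had 0.39 (SE 0.12, adjusted p = 0.399), made up of 0.03 and 0.75. Of 15 natural killer and cytotoxic genes 13 were higher (median 0.30, and 0.08 without animals 5 and 43), 11 in both schedules. The chemokine gene Ccl5 had 0.38 (SE 0.12, adjusted p = 0.364), and 0.39 without these animals, and the cytotoxic lineage factor gene Tbx21 0.34 (SE 0.12).

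Of 21 T cell genes 21 were higher, with a median of 0.17, but 0 reached an unadjusted p below 0.05. Of 15 B and plasma cell genes 13 were higher, with a median of 0.19. The T cell median was 0.05 in the single schedule (16 of 21 higher) and 0.29 in the repeated schedule (21 of 21). The B cell median was 0.06 in the single (9 of 15 higher) and 0.33 in the repeated schedule (15 of 15). Without animals 5 and 43 the T cell median was -0.06 and the B cell median 0.11. Of 15 neutrophil genes 12 were higher (median 0.27, and 0.01 without these animals), with S100a9 at 0.75 (SE 0.37) and 0.02. The neutrophil median was 0.08 in the single and 0.49 in the repeated schedule. All 14 erythroid genes were higher (median 1.15), and so were all 12 platelet genes (median 0.90). Their medians were -0.94 and -0.67 without animals 5 and 43, and -0.19 and -0.11 without animal 43 alone. Cytosolic ribosomal proteins had 26 of 29 genes with higher values (median 0.12), and 7 of 29 without animals 5 and 43 (median -0.07). Cell division genes were higher in 24 of 27 cases (median 0.16, 0.06 without these animals, and -0.05 with the covariate scores). At an unadjusted p below 0.05, 1 of the 27 was higher and 1 lower. The direction of the T cell, erythroid, platelet and ribosomal lists thus turned when these 2 oil vapor libraries were left out. The part of these libraries' erythroid transcripts in the other immune lists was not tested.

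**Figure D5:**
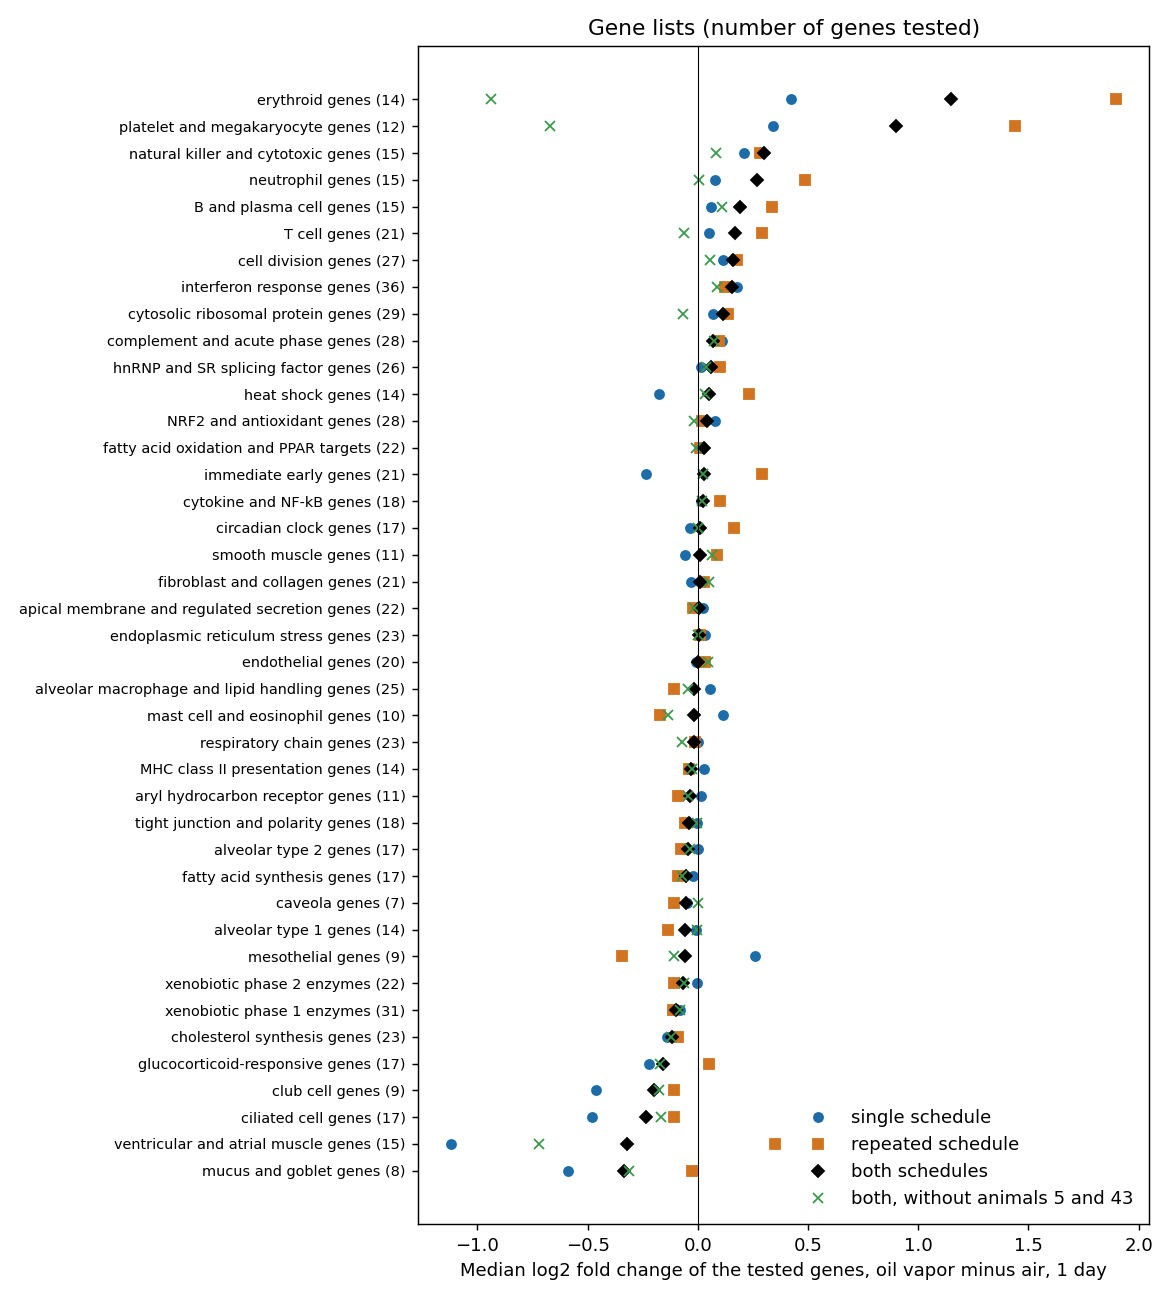
Median log2 fold change of oil vapor minus air at 1 day for each gene list with 7 or more tested genes (number in brackets; liver genes, at 2.50, left out), for the single schedule (circles), the repeated schedule (squares), both (diamonds) and both without animals 5 and 43 (crosses). Erythroid and platelet genes stand at 1.15 and 0.90 and turn to -0.94 and -0.67 without these animals, while cholesterol synthesis genes stay at -0.12.

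The 1-day effect was set against the oil vapor effect at 28 days by a test of the difference in a fit of all 48 libraries, 8 groups of 6. It differed for 77 of 15322 genes (0.503%), 73 (0.476%) with a higher and 4 (0.0261%) with a lower effect at 1 day, and the smallest adjusted p was 5.36e-05. This test took all libraries as independent. With the animals of each same-rank pair summed, in 4 groups of 6, it called 0 of 16053 genes (smallest adjusted p 0.0711, with 1431 genes at an unadjusted p below 0.05). None of these calls held in that fit. Summing also leaves fewer samples, and same-rank correlations were computed at 1 day only. The loss of calls can therefore not be divided between linked pairs and the smaller number of samples. Liver genes led, with differences of 6.69 for Alb (SE 0.91), 7.35 for Ttr, 6.31 for Pzp and 6.21 for Apob. The summed values were 6.46 for Alb, 6.89 for Ttr, 6.05 for Pzp and 6.00 for Apob, each with an adjusted p of 0.0711. Alb averaged 21.4 and 21.9 CPM in the air groups at 1 day, 127 and 224 CPM in oil vapor at 1 day, 125 and 144 CPM in air at 28 days, and 10.7 and 11.9 CPM in oil vapor at 28 days, single and repeated schedules in that order. High values thus lay in the oil vapor groups at 1 day and in the air groups at 28 days. The 28-day effect itself, also with all libraries taken as independent, was lower for 75 genes (0.489%) and higher for 0, and its liver list median was -3.00.

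The 4 genes with a lower effect at 1 day than at 28 days were Glycam1, Epb41l4b, Lrrc36 and the uncharacterized LOC498222. Lrrc36 had a difference of -0.34 (SE 0.08, adjusted p = 0.0405), from -0.27 at 1 day and 0.07 at 28 days. Epb41l4b, a gene of the band 4.1 cytoskeletal family, had a difference of -0.35 (SE 0.09, adjusted p = 0.0344), from -0.15 at 1 day and 0.20 at 28 days. LOC498222 had -0.56 (SE 0.14, adjusted p = 0.0335), from -0.34 and 0.22. Glycam1, a mucin-like ligand on lymph node vessels, had -4.06 (SE 0.85, adjusted p = 0.00678), with -3.17 in the single and -0.42 in the repeated schedule at 1 day. With pairs summed, the adjusted p of these 4 genes lay between 0.171 and 0.262. Apart from Lrrc36, they were named after their values were seen. Muc5b, with a difference of -2.45 (adjusted p = 0.0531), Cyp2b1 (-0.24, adjusted p = 0.324) and Abcb1b (-1.08, adjusted p = 0.241) did not pass.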

How the data were processed

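RNA was sequenced from 48 rat lungs, 1 library per animal, of which the 24 at 1 day are described, with the 24 at 28 days entering the fit of all 48. The deposited values are the authors' raw counts of reads for each gene symbol, whole numbers in 2 tables (1 per schedule) of 30045 genes, joined here by symbol. 0 columns belonged to no sample. Per the labels' protocols, total RNA was depleted of ribosomal RNA and made into stranded libraries. The tools were HTSeq 0.6.1, HISAT2 2.1.0, SAMtools 1.8, Trimmomatic 0.35 and bcl2fastq 2.19 with the build Rnor_6.0, per the submitters' processing notes. Which annotation and strand setting HTSeq used is not given in the sources used here. Antisense and overlapping genes are therefore uncertain. In each table the schedule and the table are the same factor, which the block absorbs. Library pairs of 1 group, 60 in all, each differed beyond sampling noise (chi-square per gene of at least 20 counts between 2.96 and 108).

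The counts were fitted in edgeR 4.0.16 (R 4.3.3) with TMM, filterByExpr on the 4 groups and the quasi-likelihood test, schedule plus treatment, two-sided, Benjamini-Hochberg adjusted over all genes tested, threshold 0.05. Differences between schedules and within-schedule effects came from group-means fits of the 24 libraries, and 1 against 28 days from that of all 48. The SE was derived from F (log2 value over the root of F) and is approximate for low genes. Levels are CPM of the library total. The test was checked on simulated data of independent libraries, with changes placed only in genes that were not of low counts. The simulation held no shift between schedules and no link between same-rank animals, so it does not cover the linked genes. Precision follows from totals of 1.54 to 7.16 M counts. Alternatives were RLE size factors, no filter, DESeq2 1.42.0, limma-voom (limma 3.58.1), all 48 libraries, the mean of within-schedule contrasts, same-rank animals summed, other-tissue scores as covariates, animals 5 and 43 left out and each animal left out. Leaving out each same-rank pair, and the sums of same-rank pairs at both times, were added after seeing the data.

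Groups came from the labels. Named genes were, in each direction, the 10 with the smallest p, a mean of at least 1 CPM and a symbol that is no placeholder, since none passed, the 3 members of smallest p of each of 46 lists, the 5 of each difference test, and 11 genes from earlier single-schedule results. Some members the rule would name are not described here. The members and lists were chosen with earlier results of these data known.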

Additional observations from a re-analysis of the deposited data

Results flagged for a closer look

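In 136 groups of 6 animals (library totals, named genes and summed lists), 21 held an animal with a wide gap to the next. The gap was over 0.625 of the group's range, the 95% limit of Dixon's test. Chance gives about 1 in 20 where values are normally distributed, and whether these values are was not tested. The groups are not independent, since many rest on the same animal. Animal 43 of the repeated oil vapor group was highest in 7 of them. It had 44600 CPM of summed erythroid genes (next animal 4960 CPM), 3030 CPM of platelet genes (220), 139 CPM of Apob (50.4), 42.3 CPM of Ttr (16.6), 62.5 CPM of Pzp (22.2), 72.9 CPM of Gc (28.1) and 37.1 CPM of Fga (14.4). It was lowest for Lrrc36, at 9.11 CPM (next 20.1), and for Rph3al, at 10.4 CPM (21.2).

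Animal 5 of the single oil vapor group, of the same rank, stood highest for summed erythroid genes with 14600 CPM (5310), platelet genes with 940 CPM (210) and heart muscle genes with 550 CPM (287). In that group animal 6 stood at 297 CPM of Pon3 (252) and animal 16 at 16.9 CPM of Lbp (10.3). In the single air group animal 4 had 2.88 CPM of Fga (0.663), and animal 1 had 57.9 CPM of Enpp5 (48.1) and 315 CPM of Pon3 (270). In the repeated air group animal 38, of the rank of animal 4, had 3.13 CPM of Itih3 (1.68), 4.12 CPM of Gc (1.93) and 559 CPM of Cav2 (524), and animal 36 had 32 CPM of Rph3al (23.5).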

How the results depend on the processing

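No paired analysis was possible because animal numbers are unique across groups, so that the labels pair no animals. Ranks came only from the order of these numbers and were used for sums, not as a block. The count of genes with a shared effect, 0, became 54 in DESeq2, 3 in limma-voom, 2 with all 48 libraries and 13 without animals 5 and 43, and stayed 0 with RLE size factors, no filter, the mean of within-schedule contrasts, pairs summed and other-tissue scores. It ranged from 0 to 35 when 1 animal was left out, and was 58, 38 and 25 without animals 6 and 44, 13 and 46, or 14 and 47, and 0 without any other pair but 5 and 43. Counts of schedule differences (0) became 45 in DESeq2, 42 in limma-voom, 28 without animal 43 and 11 without 5 and 43. Single-schedule calls (0) became 2 in limma-voom and 4 without animals 5 and 43, and repeated-schedule calls (0) became 87 in DESeq2, 70 in limma-voom, 2 without animal 43 and 2 without 5 and 43. Genes that differed between 1 and 28 days (77) became 172 with no filter, 198 in DESeq2, 26 in limma-voom and 0 with same-rank animals summed. The cause of these moves was not tested.

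Signs turned for Clec1b, Gpx1 and Cat in limma-voom (-0.58, -0.16, -0.052), without animals 5 and 43 (-0.79, -0.38, -0.16), without animal 43 (-0.11, -0.071, -0.0083, in ranges up to 1.43, 0.95 and 0.62 over single animals left out) and with other-tissue scores (-0.80, -0.31, -0.18). With these scores they also turned for Hp (-0.0050), Enpp3 (0.0091), Myl7 (0.28), S100a9 (-0.24) and Cyp1a1 (0.036). Cyp1a1 turned with same-rank animals summed as well (0.018), and ranged from -0.23 to 0.088 over single animals left out. In the single schedule alone they turned for Mal2 (0.0016), Ptprt (0.22), Hnrnpa2b1 (-0.14), Sftpc (0.0042) and Prdx6 (0.033), and in the repeated schedule alone for Enpp3 (0.29), Lbp (0.50), Bpifb1 (0.049) and Myl7 (0.37). Depth limits genes of few counts, such as Rnf208, most.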
